A study of Mus musculus with 5 samples.

Results

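Interferon-stimulated genes were examined in sorted bone marrow progenitors of mice with and without a truncating deletion in Bcor. The 43 genes were chosen as mouse symbols of the interferon response, and each was found by its gene identifier in a table of 52550 genes, so all 43 were measured. Gene expression had been read by 3′ RNA sequencing (Quant-seq) in KL cells (Lin-cKIT+Sca-1-), the marrow fraction that holds the committed myeloid progenitors. There were 3 BcorΔE9-10 libraries, from males of the genotype scl-Cre-ERT + with Bcorfl/y, and 2 BcorWT libraries, from males of the genotype scl-Cre-ERT + with Bcorwt/y. All mice of both groups thus carried the Cre transgene, and all had been given 1 mg tamoxifen by intraperitoneal injection on each of 5 days at an age of 3 to 6 months and were sampled after 20 weeks. The Cre is driven by a stem cell enhancer of Scl (Tal1), so the deletion is made in stem cells and inherited by the progenitors, and the protein left after it has lost the part through which Bcor binds a Polycomb repressive complex. Bcor itself was at 11.8 and 16.2 CPM (counts per 1e+06 counts) in BcorWT and at 23.2, 27.4 and 21.6 CPM in BcorΔE9-10, called higher with a log2 fold change of 0.78 (adjusted p = 0.0313 by limma). Counts from the transcript's 3′ end do not read the deleted exons, so this level is no check of the deletion. The sources do not say whether each library came from 1 mouse, so p-values measure the spread between these libraries, which may be technical in part.

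Type I interferons bind a receptor of Ifnar1 and Ifnar2, and the kinases Jak1 and Tyk2 then pass the signal on. A complex that contains Stat2 and Irf9 binds the interferon-stimulated response element, a paired GAAA motif, in the promoters of target genes. Interferon gamma acts through Ifngr1, Ifngr2 and Jak2, and its target promoters carry a palindromic TTC and GAA motif. The target genes encode sensors of foreign RNA, enzymes that degrade RNA or block its translation, membrane proteins that stop virus entry, and regulators that feed back on the pathway. In the marrow, stem cells and progenitors hold some of these genes at a steady level without infection, and interferon can drive stem cells into cycle.

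The promoters of 4 of the 5 genes that differed between the groups are shown, since they are where the response element would be read and they differ in it. The sequences are from RefSeq (build GRCm38.p6, minus strand for each gene) and run from 250 bases before to 50 bases after the annotated start. Capitals mark the paired motif (GAAA, any 2 bases, GAAA) in Ifitm3, Oas3 and Oas1a. Ifitm6 has no such run in this window, and there the capitals mark the other motif, TTCNNNGAA, at 2 to 10 bases before the start. The windows are chr7:141010695-141010994 for Ifitm3, chr5:120777610-120777909 for Oas3, chr5:120907476-120907775 for Oas1a and chr7:141016843-141017142 for Ifitm6.
Ifitm3: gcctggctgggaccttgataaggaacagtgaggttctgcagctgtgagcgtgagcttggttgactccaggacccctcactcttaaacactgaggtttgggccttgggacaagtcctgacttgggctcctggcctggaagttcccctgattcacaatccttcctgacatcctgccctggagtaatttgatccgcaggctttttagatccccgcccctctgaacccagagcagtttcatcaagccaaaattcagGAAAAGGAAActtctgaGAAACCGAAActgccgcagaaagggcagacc
Oas3: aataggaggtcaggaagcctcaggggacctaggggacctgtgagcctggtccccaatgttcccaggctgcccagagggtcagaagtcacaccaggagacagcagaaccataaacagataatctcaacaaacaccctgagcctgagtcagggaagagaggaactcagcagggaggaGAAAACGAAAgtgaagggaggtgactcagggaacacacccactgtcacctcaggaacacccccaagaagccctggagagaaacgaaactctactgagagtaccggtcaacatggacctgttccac
Oas1a: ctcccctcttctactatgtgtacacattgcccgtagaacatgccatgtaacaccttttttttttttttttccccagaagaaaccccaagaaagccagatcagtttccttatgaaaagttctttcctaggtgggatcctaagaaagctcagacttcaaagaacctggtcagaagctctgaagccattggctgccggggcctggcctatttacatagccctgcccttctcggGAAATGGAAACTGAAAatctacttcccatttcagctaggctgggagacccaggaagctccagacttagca
Ifitm6: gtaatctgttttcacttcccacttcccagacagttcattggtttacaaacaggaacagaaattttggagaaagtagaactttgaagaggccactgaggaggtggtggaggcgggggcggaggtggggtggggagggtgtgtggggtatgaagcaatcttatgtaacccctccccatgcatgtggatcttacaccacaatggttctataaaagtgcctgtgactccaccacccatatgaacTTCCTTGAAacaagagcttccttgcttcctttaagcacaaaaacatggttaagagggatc
Ifitm3 holds the paired motif at 2 places, both just after the annotated start. Oas1a holds 2 that overlap, the farther one at 11 to 20 bases before the start, and Oas3 holds 1 at 66 to 75 bases before it. Both strands were searched, and the motifs can share bases. A promoter was found for 33 of the 43 members, of which 19 (57.6%) held the paired motif, against 3.99% of 27025 genes. TTCNNNGAA was held by 12 of the 33 members (36.4%), against 9.55% of genes. A match is a description of the letters and not of binding. Promoters were not found for Dhx58, Ifi27, Mx1, Mx2, Oas2, Parp14, Parp9, Rtp4, Usp18 and Zbp1.

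Of the 43 members, 31 had enough counts to be tested and 12 did not. Values are CPM scaled between libraries by TMM factors, which correct for differences in RNA composition. A 3′ library reads transcript ends, so CPM can be set side by side between genes without division by length. The tested members were mostly low in KL cells, with 21 of 31 below the median level of all genes tested. Ifitm6 was the highest, at the 96.8th percentile of genes, and Ifitm3 followed at the 86.4th. Total counts ran from 5998924 to 8303999 per library, so 10 counts correspond to between 1.17 and 1.63 CPM.

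The 12 members that were not tested had at most 22 counts in any library. They include the antiviral GTPases Mx1 and Mx2, the translation inhibitors Ifit1 and Ifit3, the synthetase-like Oasl1 and Oasl2, and Usp18, which removes Isg15 and blocks the receptor. The other 5 were the sensor Zbp1, the GTPases Gbp2 and Irgm1, Ifi44 and the chaperone Rtp4. Summed over the 12, the BcorWT libraries held 60 and 56 counts and the BcorΔE9-10 libraries 19, 35 and 52. Rtp4 had 22 and 9 counts in BcorWT and 3, 6 and 4 in BcorΔE9-10, and Oasl1 had 15 and 2 against 0, 2 and 0. The rest had 9 counts or fewer in every library. At this depth a count of 0 allows up to 3 counts, or 0.351 to 0.490 CPM depending on the library, counting error only.

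**Figure D1:**
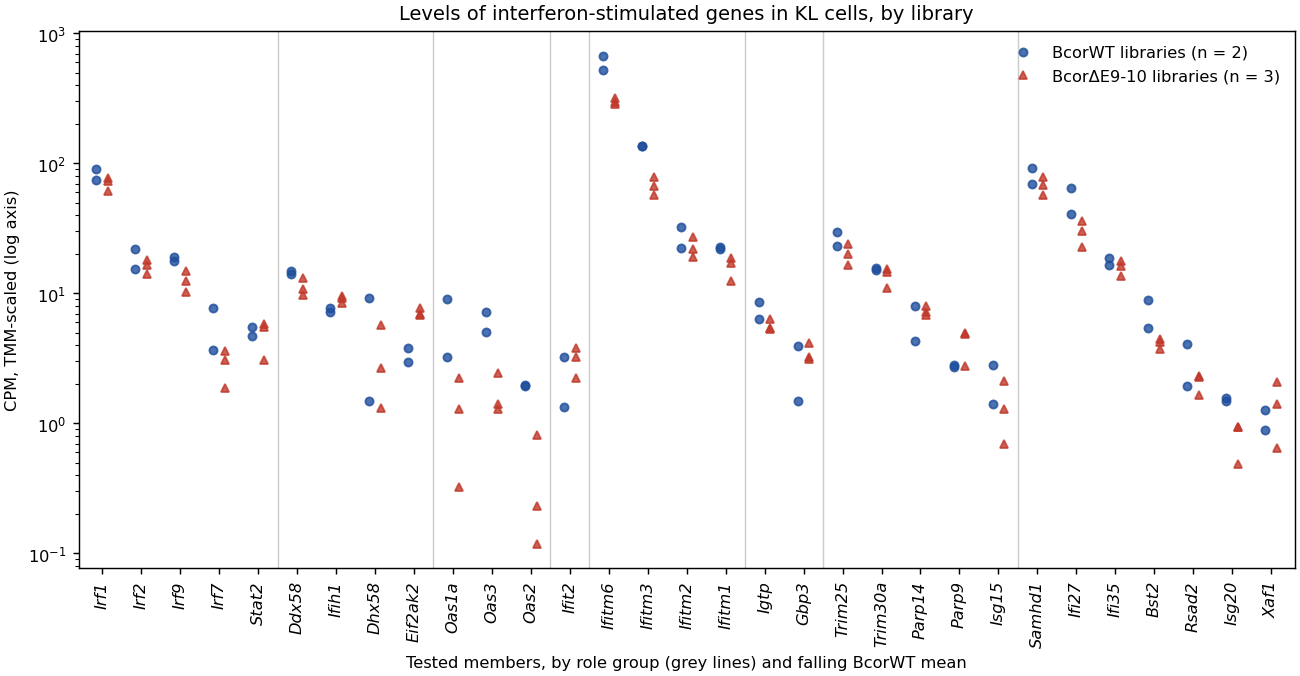
CPM (log axis) of the 31 tested members in each library, with 1 point per library (blue circles BcorWT, n = 2, red triangles BcorΔE9-10, n = 3) and grey lines between role groups. Ifitm6 and Ifitm3 stand highest, and for both all BcorΔE9-10 points lie below both BcorWT points.

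The comparison of genotypes asked which of these genes differ between BcorΔE9-10 and BcorWT progenitors. In BcorΔE9-10, 5 members fell and none rose. Those that fell were Ifitm6, Ifitm3, Oas3, Oas1a and Ifi27 (limma adjusted p under 0.05 over all 11766 genes tested). They are 5 of 31 tested members (16.1%), where 10.1% of all genes tested passed in either direction, 4.09% lower and 6.02% higher. The members were chosen with earlier results of these data known, so the shares in this paragraph are descriptions and test nothing. Eif2ak2 was the 1 member above 0 with an unadjusted p under 0.05. It was called by edgeR and not by DESeq2. Over all genes 708 were called higher and 481 lower, and with libraries scaled by total counts alone 1210 and 197, with 4 members lower and 1 higher. The count of 5 dropped to 3 without BcorWT library 1, to 3 without BcorΔE9-10 library 2 and to 2 without BcorΔE9-10 library 3. Of the 31, 24 had a negative log2 fold change (77.4%, against 49.6% of all genes tested) and the median was -0.37, against 0.0043 for all genes. In 12 members (38.7%) all BcorΔE9-10 libraries lay below both BcorWT libraries, where 20.3% of all genes did, and in 2 (6.45%) they lay above, where 22.6% of all genes did. Oas2 and Isg20 reached 10 counts in BcorWT libraries only and Xaf1 in BcorΔE9-10 libraries only, so their passing the filter already depended on the difference. The study names p under 0.05 with a log2 fold change beyond 0.5 in size, without saying whether p was adjusted. Read as an unadjusted p, this threshold was passed by 9 members that were lower (29.0%, against 5.6% of all genes) and 1 that was higher (3.23%, against 11.1%).

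**Figure D2:**
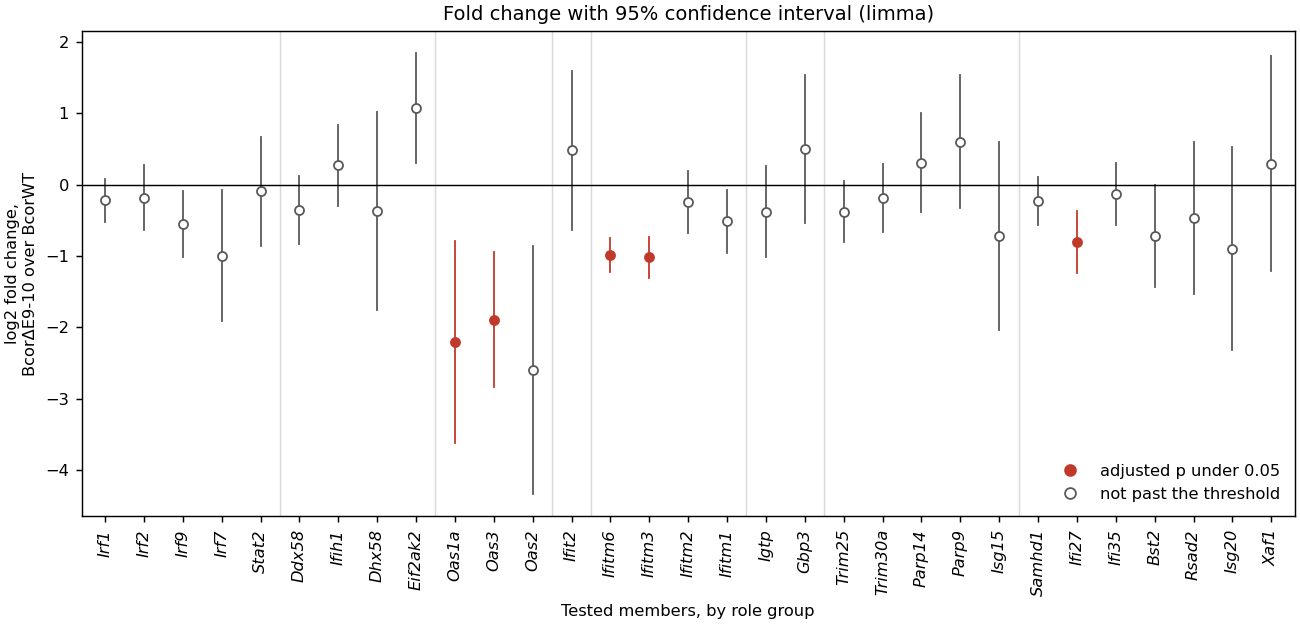
Log2 fold change of BcorΔE9-10 over BcorWT for the 31 tested members, with 95% confidence intervals of the limma fit. Filled red points are the 5 past the threshold, all below 0, and open points are the other 26.

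The Ifitm genes encode small membrane proteins that hinder the entry of enveloped viruses, and Ifitm1 and Ifitm3 are also known as markers of stem and early progenitor cells. The 4 members lie within 63.1 kb of chromosome 7 (140954837 to 141017924), and 2 of the 4 fell. Ifitm6 stood at 675 and 527 CPM in the BcorWT libraries and at 321, 298 and 284 CPM in the BcorΔE9-10 libraries. The BcorWT mean was 601 ± 105 CPM (SD, n = 2) and the BcorΔE9-10 mean 301 ± 18.4 CPM (SD, n = 3). The log2 fold change was -0.99, with a standard error of 0.115 and an adjusted p of 7.95e-05 by limma. Ifitm3 stood at 136 and 137 CPM against 79.1, 66.9 and 57.5 CPM. The means were 136 ± 0.816 CPM (SD, n = 2) in BcorWT and 67.8 ± 10.8 CPM (SD, n = 3) in BcorΔE9-10. In log2 units the difference was -1.02 (standard error 0.138, adjusted p = 0.000242 by limma). The groups did not overlap for either gene. Ifitm1 was at 22.2 and 23.0 CPM against 18.9, 17.1 and 12.4 CPM, also without overlap, but did not pass (log2 fold change -0.51, limma adjusted p = 0.137). Ifitm2 overlapped between the groups, at 32.7 and 22.4 CPM against 27.4, 19.1 and 22.1 CPM (limma adjusted p = 0.495), and 32.8% of the words of 30 bases in its last 300 bases occur in another gene. Ifitm6 and Ifitm3 were called in each of the 16 alternative fits.

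KL cells were checked against markers, since Ifitm6 is also transcribed in granulocytes. All 12 progenitor markers listed were detected, and their summed level, most of it Mpo (4292 to 5534 CPM), overlapped between the groups. Of the 12, 2 were called higher, Kit and Myb, and none lower. Kit, the receptor on which the cells were sorted, was at 18.2 and 19.6 CPM in BcorWT and at 53.4, 50.1 and 49.4 CPM in BcorΔE9-10 (adjusted p = 9.82e-05 by limma). Myb, a transcription factor of progenitors, had a log2 fold change of 0.41 (adjusted p = 0.0201 by limma). The 10 markers of mature neutrophils, such as S100a8 and Ltf, summed to 216250 and 228655 CPM in the BcorWT libraries and to 149640 to 173550 CPM in the BcorΔE9-10 libraries. S100a8 and S100a9 made up most of these sums. Of the 10 markers, 6 were called lower and none was at 0 in every library, while Camp had a log2 fold change of 0.25 that did not pass (adjusted p = 0.114 by limma). The 10 markers of basophils, mast cells and eosinophils summed to 1084 and 1390 CPM against 452 to 621 CPM, with 7 called lower, 1 (Gata2, also a stem cell factor) called higher and none at 0 in every library. Monocyte and macrophage markers summed to 1457 and 1461 CPM against 1094 to 1211 CPM, most of it Ly6c2, the 1 of 10 that was called lower (1229 and 1247 CPM against 967, 1007 and 920 CPM). Cd14 of that list had a log2 fold change of 0.70 that did not pass, and none was at 0 in every library. Stem cell and multipotent progenitor markers were listed with the members Ifitm1 and Ifitm3 among them, and the remaining 8 summed to 13.2 and 13.9 CPM in BcorWT and to 42.2, 37.9 and 47.9 CPM in BcorΔE9-10. Most of that difference was Hoxa9, at 2.27 and 2.22 CPM against 28.2, 20.9 and 32.8 CPM (log2 fold change 3.56, adjusted p = 0.000192 by limma). Hlf and Meis1 were not called and the other 5 were too low to be tested. Erythroid markers summed to 26.6 and 69.8 CPM against 64.9, 145 and 260.4 CPM. Of 7 tested, 6 were above 0 with an unadjusted limma p under 0.05, and 1 of these (Car1) was called higher. T and NK markers summed to 193 and 190.3 CPM against 173, 135 and 174 CPM, most of it Nkg7. Of 5 tested, 3 were above 0 and none was called by limma. The 2 at an unadjusted p under 0.05 went opposite ways, Nkg7 with a log2 fold change of -0.32 and Ncr1 with 1.44. The T cell genes Cd3e, Cd3g, Cd4 and Cd8a were near 0. B lymphoid markers summed to 41.5 and 62.5 CPM against 46.1 to 68.3 CPM, with 5 of 6 tested above 0, none called by limma (1 at an unadjusted p under 0.05) and Ms4a1 at 0 in every library. Conventional dendritic markers summed to 17.3 and 38.2 CPM against 26.5 to 34.9 CPM, with none of 5 tested called by limma and 0 at an unadjusted p under 0.05. The part of these other cell types in the members' levels was not tested, and in bulk RNA fewer cells of a type and less RNA per cell cannot be told apart.

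Markers of plasmacytoid dendritic cells, a major source of type I interferon, summed to 116 and 132 CPM in BcorWT and to 122 to 134 CPM in BcorΔE9-10, of which Irf8 made up 71.9 to 86.6 CPM, with Klk1 at 0 in every library. Of 7 tested, 1 (Runx2) was called higher, at 6.82 and 6.22 CPM against 13.9, 13.9 and 12.9 CPM, and none lower. Bst2, the tetherin that holds budding virus on the cell and also a marker of those cells, was at 5.40 and 8.89 CPM against 4.25, 3.75 and 4.44 CPM. The Bst2 groups did not overlap, but the difference did not pass (log2 fold change -0.71, limma adjusted p = 0.199). Ly6a, which encodes the Sca-1 antigen that the sort excluded and is itself induced by interferon, was at 0.444 to 1.142 CPM in all 5 libraries and was not tested.

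The oligoadenylate synthetases make a short RNA signal that switches on RNase L, which cuts viral and cellular RNA. The 3 tested members lie within 177 kb of chromosome 5 (120730333 to 120907521), and 2 of the 3 fell, from low levels. Oas3 was at 7.24 and 5.04 CPM in BcorWT and at 1.30, 2.45 and 1.40 CPM in BcorΔE9-10, with no overlap. It fell by 1.90 in log2 units (standard error 0.447, adjusted p = 0.0132 by limma). Oas1a was at 3.27 and 9.04 CPM against 2.25, 0.326 and 1.29 CPM, again without overlap, though the BcorWT libraries differed by more than the gap between BcorWT library 1 and BcorΔE9-10 library 1. It fell by 2.21 in log2 units (standard error 0.670, adjusted p = 0.0454 by limma). Oas2 had 14 and 13 counts against 1, 5 and 2, and its difference of -2.60 in log2 units did not pass (standard error 0.825, adjusted p = 0.0554 by limma).

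Behind the Oas values stand few counts, 51 and 34 against 11 to 15 for Oas3 and 23 and 61 against 2 to 19 for Oas1a. Oas3 was no longer called without BcorWT library 1 (-1.65, limma adjusted p = 0.0823) or BcorΔE9-10 library 3 (-1.80, limma adjusted p = 0.0614). Oas1a was lost without BcorWT library 2 (-1.48, limma adjusted p = 0.207) and without BcorΔE9-10 library 1, 2 or 3 (limma adjusted p = 0.0548, 0.130 and 0.116). With all libraries kept it was also lost under total counts alone, GC correction, and GC correction joined to the replicate block (limma adjusted p = 0.0521, 0.0541 and 0.0579). It was called in 8 of 15 alternatives, over which its adjusted p ran from 0.00520 to 0.207. The last 300 bases of Oas1a share 49.1% of their words of 30 bases with Oas1g, and those of Oas3 share 50.2% with other genes. How such reads were counted was not given. Tgtp1 and Tgtp2, whose ends share 100% of these words, each had 20 and 17 counts in BcorWT and 16, 12 and 24 in BcorΔE9-10. A read that matches both copies thus appears to be counted for each. Oas1g, the near copy of Oas1a on the same locus, was at 2.13 and 5.63 CPM against 1.54, 0.163 and 0.935 CPM. It did not pass (limma adjusted p = 0.0805), with a log2 fold change of -2.13. Oas1g and Oas1a may hold the same reads in part, so their values are not separate results. The other genes of that locus, Oas1b and Oas1c, had log2 fold changes of -1.66 and 0.018 from at most 25 counts in any library, with groups that overlapped (limma adjusted p = 0.176 and 0.992).

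Ifi27, a small hydrophobic membrane protein (chr12:103434211-103440239, plus strand), was the other member to fall. It stood at 64.8 and 41.2 CPM in BcorWT and at 36.2, 22.8 and 30.04 CPM in BcorΔE9-10, without overlap. It fell by 0.80 in log2 units (standard error 0.206, adjusted p = 0.0206 by limma). Its call rested on BcorWT library 1, without which the log2 fold change was -0.48 (limma adjusted p = 0.243), and it was also lost without BcorΔE9-10 library 2 (-0.65, limma adjusted p = 0.0809) or 3 (-0.82, limma adjusted p = 0.0637).

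The regulators of the response were all below 0 in log2 fold change but none of the 5 tested passed, and Stat2 was above 0 when libraries were scaled by total counts alone. Irf1, an activator that also responds to interferon gamma, was the highest, at 91.5 and 74.7 CPM in BcorWT and 73.6, 61.8 and 77.8 CPM in BcorΔE9-10 (log2 fold change -0.22, SE 0.143, limma adjusted p = 0.364). Irf7, which amplifies type I interferon transcription, differed most within this group. It was at 7.67 and 3.70 CPM against 3.07, 3.59 and 1.87 CPM, without overlap but with BcorWT library 2 close to BcorΔE9-10 library 2. The log2 fold change was -0.997 (standard error 0.434, unadjusted p = 0.0351 and adjusted p = 0.161 by limma). The study lists Irf7 among the transcription factors that differed in BcorΔE9-10 KL cells. Irf9, the DNA-binding subunit of the complex with Stat2, was at 19.0 and 17.9 CPM against 15.01, 10.3 and 12.4 CPM (-0.55, limma adjusted p = 0.122). Stat2 and the repressor Irf2 were at -0.09 and -0.18, with groups that overlapped.

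Among the sensors, which bind foreign RNA, the difference farthest from 0 was a positive one. Eif2ak2 (PKR), a kinase that stops translation on double-stranded RNA, was at 3.83 and 2.96 CPM in BcorWT and 7.80, 6.85 and 6.90 CPM in BcorΔE9-10, with no overlap. Its log2 fold change of 1.07 (SE 0.364) did not pass under limma (adjusted p = 0.0731). It passed with edgeR (quasi-likelihood test, adjusted p = 0.0478), with total counts alone (0.0380) and with at least 10 counts required in every library (0.0418). Ddx58 (RIG-I) was the highest sensor, at 14.8 and 14.2 CPM against 13.1, 9.79 and 10.9 CPM (-0.36, limma adjusted p = 0.340). Ifih1 (MDA5) was at 7.24 and 7.71 CPM against 9.22, 9.63 and 8.41 CPM (0.27, limma adjusted p = 0.570). Dhx58 (LGP2) differed more within the groups than between them, at 9.23 and 1.48 CPM against 5.67, 1.31 and 2.69 CPM.

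No GTPase, Ifit gene or gene of the ubiquitin, Isg15 and ADP-ribosylation group passed. Isg15, the ubiquitin-like modifier that gives the response its best-known marker, had 10 and 19 counts in BcorWT and 11, 13 and 6 in BcorΔE9-10. Its log2 fold change was -0.72 with a 95% interval from -2.04 to 0.60 (limma adjusted p = 0.505), which takes in both a fall of the size seen in Ifitm3 and a small rise. Trim25, the ligase that activates RIG-I, was the highest of the ubiquitin and ADP-ribosylation genes, at 23.0 and 29.5 CPM against 16.4, 20.2 and 24.0 CPM (-0.38, limma adjusted p = 0.258). Igtp, a GTPase that attacks parasite vacuoles, was at 8.66 and 6.37 CPM against 6.38, 5.38 and 5.38 CPM (-0.38, limma adjusted p = 0.459). Gbp3, of the guanylate-binding family, was at 3.98 and 1.48 CPM against 4.14, 3.26 and 3.16 CPM (0.50, limma adjusted p = 0.565).

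Samhd1, which depletes the nucleotides needed for reverse transcription, was at 91.6 and 69.0 CPM in BcorWT and 68.3, 57.3 and 79.2 CPM in BcorΔE9-10 (-0.22, limma adjusted p = 0.402). Its 95% interval of -0.56 to 0.11 did not reach the -0.99 of Ifitm6. Isg20, an RNA exonuclease, had 11 and 10 counts against 8, 3 and 8 (-0.90, limma adjusted p = 0.430). Ifit2, the single Ifit gene tested, was at 3.27 and 1.33 CPM against 3.78, 3.26 and 2.22 CPM (0.48, limma adjusted p = 0.611). The other 6 tested members (Trim30a, Parp9, Parp14, Ifi35, Rsad2 and Xaf1) had log2 fold changes from -0.47 to 0.61 and limma adjusted p-values from 0.416 to 0.839.

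Members tended to be highest in 1 of the control libraries. BcorWT library 1 held the highest value of 18 of the 31 tested members, where 24.8% of all genes tested were highest there, and BcorWT library 2 that of 6. BcorΔE9-10 libraries 1, 2 and 3 held the highest value of 5, 1 and 1. The median deviation of the members from the midpoint of the group means was 0.32 on the log2 scale in BcorWT library 1, -0.030 in library 2, and -0.042, -0.28 and -0.17 in the BcorΔE9-10 libraries. BcorWT library 2 thus lay nearer to the BcorΔE9-10 libraries than to the other control. Without BcorWT library 1 the median log2 fold change of the members was -0.16 and 3 were called lower, among them Ifitm6 and Ifitm3. Of the 10 mature neutrophil markers, 9 were higher in BcorWT library 1 than in library 2, with sums of 228655 and 216250 CPM. The ratio was from 1.07 to 1.15 for 5 of them and from 2.12 to 3.19 for Mmp8, Mmp9, Retnlg and Cxcr2, while Camp was lower in library 1 (0.775). Conventional dendritic markers summed to 38.2 CPM in library 1 and 17.3 CPM in library 2, and basophil, mast cell and eosinophil markers to 1390 and 1084 CPM. The part of these differences in the members' levels was not tested.

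**Figure D3:**
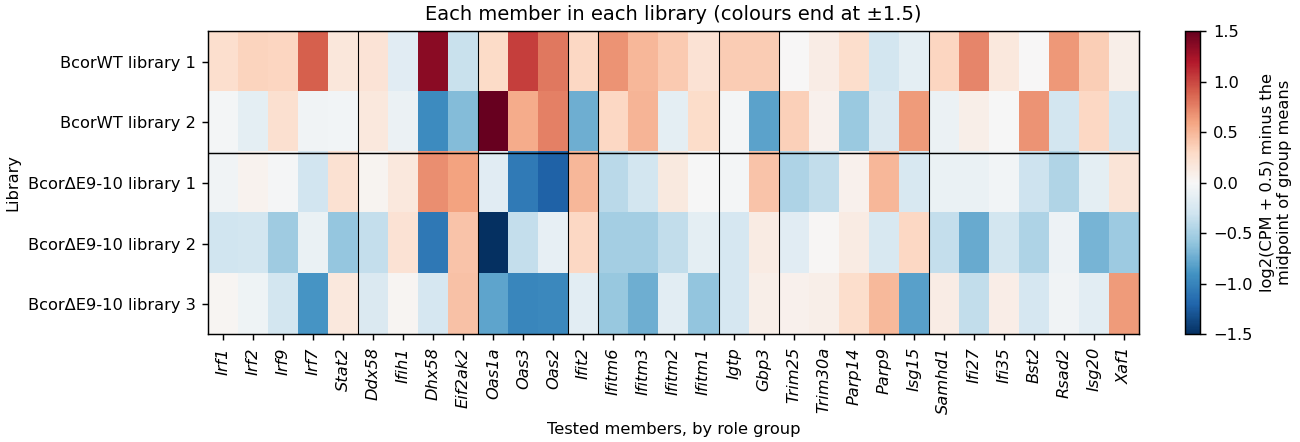
Log2(CPM + 0.5) of each tested member in each library, minus the midpoint of the group means, with red above and blue below it and colours ending at ±1.5. The row of BcorWT library 1 is mostly red, that of BcorWT library 2 mixed.

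The rest of the pathway was described with lists of ligands, receptors and signal transducers, brakes and nucleic acid sensing genes. Of 74 such genes 44 were tested, 4 were called higher (9.09%, against 6.02% of all genes) and none lower (against 4.09%), with 22 of 44 on either side of 0 and a median of 0.00052. None of the 21 interferon genes was tested, with 2 to 7 counts per library summed over all of them. The receptor chains and kinases were present and none passed. Ifnar2 came closest, at 59.9 and 58.7 CPM against 45.5, 48.8 and 38.3 CPM without overlap (log2 fold change -0.44, SE 0.147, limma adjusted p = 0.0686). Log2 fold changes were 0.35 for Ifnar1, 0.016 for Ifngr1, 0.14 for Ifngr2, -0.22 for Jak1, 0.13 for Jak2 and 0.074 for Tyk2.

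The 4 pathway genes that rose were Irf5, Irf2bp2, Ptpn2 and Tbk1. Irf2bp2, a partner of the repressor Irf2, rose from 42.5 and 71.3 CPM to 112, 111 and 118 CPM (log2 fold change 1.05, SE 0.170, limma adjusted p = 0.0011). Ptpn2, a phosphatase that acts on Jak and Stat proteins, rose from 7.10 and 7.71 CPM to 14.8, 16.8 and 14.6 CPM (1.04, SE 0.255, limma adjusted p = 0.0166). Tbk1, the kinase that activates Irf3 and Irf7, rose from 11.5 and 14.7 CPM to 23.2, 25.1 and 29.8 CPM (1.00, SE 0.219, limma adjusted p = 0.0085). Irf5, an activator of inflammatory genes, rose from 12.4 and 8.45 CPM to 17.8, 17.5 and 19.2 CPM (0.82, SE 0.238, limma adjusted p = 0.0369). The groups did not overlap for any of the 4. Without BcorWT library 1, which leaves 1 control, 1 of these lists' genes was called. The feedback inhibitors Socs1 and Socs3 had log2 fold changes of 0.83 and 1.29 that did not pass (limma adjusted p = 0.211 and 0.519), Socs3 from few counts.

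A further list held 115 interferon-stimulated genes that are not members. Of 82 tested, 5 were called higher and 2 lower, near the background shares of 6.02% and 4.09%, with 47 below 0 and a median of -0.11. Slfn2, a regulator of quiescence in immune cells, fell from 127 and 125 CPM to 54.6, 75.4 and 84.4 CPM (log2 fold change -0.84, limma adjusted p = 0.0026). Sp110, a nuclear body protein, fell by 0.47 (limma adjusted p = 0.0291). Those that rose were Tdrd7 (2.14), the mitochondrial RNA exonuclease Pnpt1 (1.89), the pro-apoptotic Bcl2l11 (1.22), the scramblase Plscr1 (1.18) and Gbp7 (0.96), with limma adjusted p-values from 0.0022 to 0.0443. Whether the members and this list differ was not tested.

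**Figure D4:**
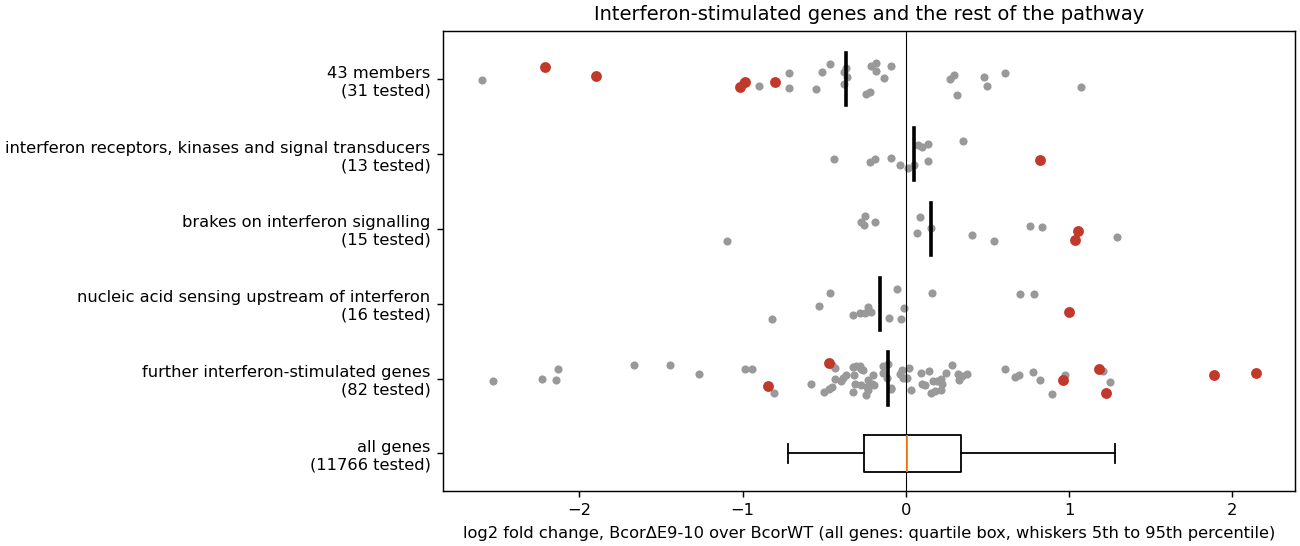
Log2 fold change of BcorΔE9-10 over BcorWT for each tested gene of the members and 4 other lists, with black bars at the medians and red points past the threshold, and a box of quartiles with whiskers from the 5th to the 95th percentile for all 11766 genes. Red points lie below 0 among the members and on both sides among the further genes. They lie above 0 among brakes and sensing genes, and in the list with the receptors, where the 1 red point is Irf5.

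Members with and without the paired motif in their promoter had like medians. Of 15 tested members with it, 3 fell and 12 were below 0, with a median of -0.36. Of 11 with a promoter and no match, 1 (Ifitm6) fell and 9 were below 0, with a median of -0.38, and of 5 with no promoter entry 1 (Ifi27) fell, with a median of -0.37. Among all 319 genes tested whose promoter held the motif, 21 (6.58%) were called lower and 19 (5.96%) higher, and among 7981 whose promoter did not, 4.40% were called lower and 5.40% higher. Around the Ifitm locus, 7 other protein-coding genes were tested within 100000 bases, a set looked up after the Ifitm values had been seen. Their log2 fold changes ran from -0.62 to 0.30, and 1 of them, the proteasome subunit Psmd13, fell (-0.48, limma adjusted p = 0.0147).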

How the data were processed

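Gene expression was measured by Quant-seq, which reads the 3′ end of polyadenylated transcripts, in 5 libraries of KL cells. The authors trimmed the reads, aligned them to mm10 with HISAT2 and counted them per gene with featureCounts of the Subread package, and the deposited values are raw counts, not normalised. The options for strand and for reads that align to several places are not given in the sources used here, so overlapping genes and near copies may hold each other's reads. Groups were taken from the sample titles. Symbols were assigned to 52403 of 52550 genes by identifier, and coordinates are those of GENCODE M21 on the same build.

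The filter filterByExpr (edgeR 4.0.16, at least 10 counts, total of 15) was applied, followed by TMM scaling, voom and limma 3.58.1 under R 4.3.3. Tests were two-sided and p-values for 11766 genes were adjusted by the Benjamini-Hochberg method. The study names limma. The quasi-likelihood test of edgeR and DESeq2 (version 1.42.0), other scaling, filters, depth, GC content, fits without each library and a replicate block were alternatives. The procedures were tested on simulated data. Libraries of 1 group were distinct beyond counting error (chi-square divided by the number of genes, 5.94 to 11.1) and total counts ran from 5998924 to 8303999.

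The members and lists were chosen with earlier results of these data known. Named with values were members past the threshold and, in each of 8 role groups, the highest and the one with the largest absolute fold change, pathway genes past the threshold, and Ifnar1, Ifnar2, Ifngr1, Ifngr2, Jak1, Jak2, Tyk2, Socs1 and Socs3. A further gene is not reported here. Other genes, Sp110 and the Ifitm6 promoter were added after their values were seen.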

Additional observations from a re-analysis of the deposited data

How the results depend on the processing

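The count of members called lower stayed between 4 and 6, where 5 were called, under the alternatives that kept all libraries. Leaving out 1 library gave 2 to 7. No member was called higher with limma as reported, and 1, Eif2ak2, was called higher with the edgeR quasi-likelihood test, with total counts alone and with at least 10 counts in every library. The median log2 fold change of the members ran from -0.41 to -0.23 with all libraries and from -0.42 to -0.16 without 1 library, lowest in size without BcorWT library 1. Total counts alone moved the median of all genes to 0.15. The fits without 1 library called 558 to 1200 genes in all, 4 to 8 of the further interferon-stimulated genes, and 1 to 3 of the other pathway genes. In these fits 16 to 26 members did not overlap between the groups, or 53.3% to 78.8% of those tested, where 52.8% to 68.9% of all genes did not, and the difference in member level ran from -0.48 to -0.16. A fit with 1 BcorWT library takes its spread from the BcorΔE9-10 libraries alone.

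Direction changed only for members that were not called. With total counts alone Stat2 was at 0.046 and Ifi35 at 0.0072. Without BcorWT library 1 Stat2 was at 0.013, Irf2 at 0.061, Dhx58 at 0.95, Ifitm2 at 0.028 and Rsad2 at 0.072. Without BcorWT library 2 Ifit2 was at -0.12, Gbp3 at -0.17 and Parp14 at -0.11, while Irf7 (-1.502) and Dhx58 (-1.62) were called lower. Without BcorΔE9-10 library 2 Stat2 was at 0.13 and Dhx58 at 0.032. Ifih1 was at -0.12 after GC correction and at -0.059 when the replicate block was added to it. Xaf1 was at -0.053 in the replicate block fit and at -0.10 with both. The cause was not tested. Over all fits without 1 library Stat2 ran from -0.24 to 0.13, Ifit2 from -0.12 to 1.11, Ifitm2 from -0.51 to 0.028, Gbp3 from -0.17 to 1.20, Parp14 from -0.11 to 0.75 and Rsad2 from -0.98 to 0.072. Of 485 comparisons of 31 members with an alternative, 450 kept direction and side of the threshold.

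Oas1a lost its call under total counts alone, GC correction, and that correction joined to the replicate block (limma adjusted p = 0.0521, 0.0541 and 0.0579). Oas2 gained one with no filter (0.0401) and after counts were thinned to the depth of the smallest library (0.0269). Replicate numbers are shared by 2 pairs of libraries, and their deviations correlated by only 0.070 and 0.076, so the number was not taken to pair them. Under the replicate block 5 members were called lower, 1454 genes were called in all, and the median of the members was -0.33.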
